A study of Mus musculus with 15 samples.

Results

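The genes described here make, fold and move the proteins that a cell secretes. A set of 39 genes was taken by symbol in 4 role groups: 15 chaperones and foldases of the endoplasmic reticulum (ER), 8 stress sensors and transcription factors of the unfolded protein response, 9 genes of the translocon and signal peptidase, and 7 genes of vesicle transport and retrieval. The rule named symbols and used no measured values, but the set was chosen with earlier results of these data known. Of the 39, 37 were measured among 19938 genes. Sec61g, a small translocon subunit read only by probe sets that name several genes, and Kdelr2, a receptor that returns escaped ER proteins, were not analysed here. That left 8 translocon and 6 vesicle genes.

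The RNA came from whole tarsal joints of male DBA/1JBom mice with collagen-induced arthritis (CIA), an autoimmune joint disease raised with chicken collagen type II in complete Freund's adjuvant on day 1 and a boost in incomplete adjuvant on day 21. The joints had been arthritic for 0 to 3 days, 1 to 2 weeks or 3 to 4 weeks at a clinical score of 3, or were declining, which means that the score had fallen after it had stayed at 3. The 3 controls are labelled as non-induced, and it is not settled whether they had been given adjuvant. Each of 15 one-colour arrays holds 1 joint of 1 mouse, and 14 are used: the labels mark animal 57 of day 0 to 3 as failing quality control, which leaves 2 arrays at day 0 to 3 and 3 in every other group. Skin and visible muscle had been removed and other soft tissue kept, so each array is a mixture that includes bone, cartilage, synovium and infiltrating cells. Skin and muscle markers still varied widely. As log2 differences from the control mean, 8 epidermis markers averaged from −1.87 on animal 18 to 3.55 on animal 21. The mean of 8 skeletal muscle markers ran from −2.52 on animal 16 to 0.44 on control 3. In such a mixture more cells of a secretory type and more RNA per cell cannot be told apart. Arrays show neither protein, nor phosphorylation, nor the splicing of Xbp1.

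Secreted and membrane proteins enter the ER through the Sec61 channel, lose their signal peptide, receive sugars and disulphide bonds with the help of chaperones, and leave in COPII-coated vesicles, while COPI-coated vesicles carry ER residents back. When unfolded protein builds up, the sensors Ern1 (IRE1), Eif2ak3 (PERK) and Atf6 start the unfolded protein response. Spliced Xbp1 and cleaved Atf6 are known to raise chaperone and translocon genes, and Atf4 and Ddit3 (CHOP) to raise amino acid and cell death genes. Joint tissue is rich in secretory cells, such as fibroblasts, osteoblasts and plasma cells.

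Many chaperones and translocon genes were higher at day 0 to 3 than in controls. By limma, with p-values adjusted after Benjamini and Hochberg over the 19938 genes and a limit of 0.05, 14 of 37 members were higher and 0 lower at day 0 to 3, where 4.46% of all genes were higher. By role these were 8 of 15 chaperones, 5 of 8 translocon genes, 1 of 6 vesicle genes and 0 of 8 sensors and factors. For a group of 8 genes, 0 lies near the share of all genes, and differences between role groups were not tested. The median log2 change was 0.98 for the chaperones, 1.19 for the translocon group, 0.67 for the vesicle group and 0.27 for the sensors and factors, against −0.12 over all genes. Both day 0 to 3 arrays lay above all 3 controls for 24 of the 37 members, which was so for 18.4% of all genes. Each count at day 0 to 3 rests on 2 arrays, and without animal 16 or without animal 18, which leaves 1 array, 0 members passed. Without control 2, 9 passed. Of the translocon genes, Sec61a1 alone passed under each of 3 rescalings of the arrays, given below.

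**Figure D1:**
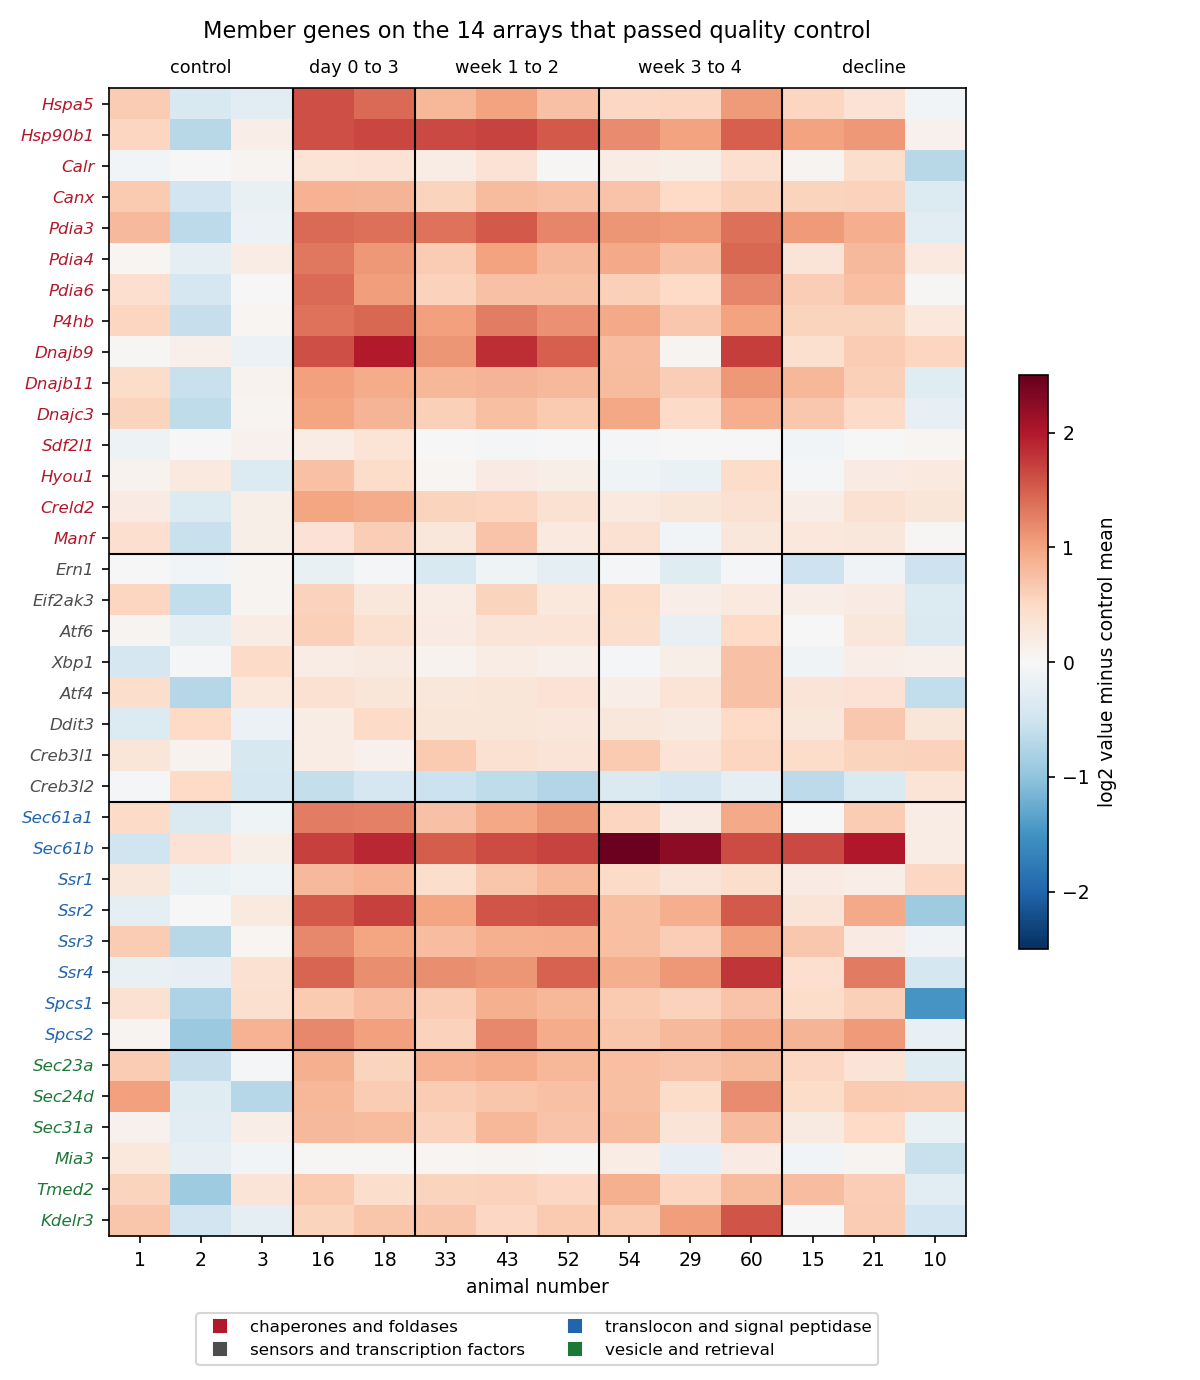
Difference of each of the 37 measured members (vertical, coloured by role) from its control mean on the log2 scale, on the 14 arrays (horizontal, by group and animal number). The chaperone and translocon genes were mostly above the control mean on the arrays of the first 3 phases, and the 8 sensors and factors differed little between groups.

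Values below are RMA log2 values, given for animals 16 and 18 of day 0 to 3, animals 33, 43 and 52 of week 1 to 2, animals 54, 29 and 60 of week 3 to 4, animals 15, 21 and 10 of the decline, and controls 1, 2 and 3, in that order. Values of different genes come from different probes and are not set against each other.

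Among the chaperones, Hspa5 (BiP), the main Hsp70 of the ER lumen, read 10.26 and 10.06 on the day 0 to 3 arrays, then 9.47, 9.64 and 9.37, then 9.15, 9.19 and 9.72, then 9.19, 9.01 and 8.58 in the decline, against 9.29, 8.26 and 8.39 in controls. All 5 arrays of the first 2 weeks lay above every control, and control 1 lay within the range of the later phases. Hspa5 was 2.86-fold higher at day 0 to 3 (log2 change 1.52, SE 0.29, adjusted p 0.00855) and its change in week 1 to 2 was 0.85 (adjusted p 0.0512), which did not pass.

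Hsp90b1 (GRP94), the ER member of the Hsp90 family, read 11.90 and 11.97, then 11.95, 11.98 and 11.82, then 11.47, 11.30 and 11.78, then 11.29, 11.37 and 10.40, against 10.83, 9.59 and 10.45. All 8 arrays of the first 3 phases were above the highest control, and decline 10 fell among the controls. In the first phase the log2 change was 1.64 (adjusted p 0.0116), and week 1 to 2 had 1.63 (adjusted p 0.00657). Week 3 to 4, with 1.23, did not pass (adjusted p 0.0548).

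Dnajb9 (ERdj4), a J-domain partner of BiP that takes misfolded protein towards degradation, read 7.84 and 8.22, then 7.34, 8.09 and 7.73, then 7.01, 6.30 and 7.96, then 6.64, 6.87 and 6.78, against 6.26, 6.36 and 6.08. Its controls spread little (SD 0.14), while its week 3 to 4 arrays spread most (SD 0.83), with animal 29 inside the control range. The log2 change was 1.80 at day 0 to 3 (SE 0.36, adjusted p 0.0107) and 1.48 in week 1 to 2 (adjusted p 0.0142). It was 0.86 in week 3 to 4 (adjusted p 0.146).

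The protein disulphide isomerases, which form and reshuffle disulphide bonds, were higher at day 0 to 3 in all 4 cases of the set. P4hb, which is also the beta subunit of collagen prolyl 4-hydroxylase, read 10.84 and 10.91, then 10.50, 10.75 and 10.62, then 10.43, 10.15 and 10.48, then 10.03, 10.04 and 9.75, against 10.02, 8.90 and 9.52. Every array of the first 3 phases was above every control, and the log2 change was 1.40 at day 0 to 3 (adjusted p 0.00677) and 1.15 in week 1 to 2 (adjusted p 0.00965). Pdia3 (ERp57), which works with calnexin and calreticulin on glycoproteins, changed by 1.39 and 1.37 in the same phases (adjusted p 0.0472 and 0.0301), and its controls ran from 8.23 to 9.70.

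Pdia4 was the chaperone that also passed in week 3 to 4. It read 8.85 and 8.61, then 8.16, 8.53 and 8.34, then 8.47, 8.26 and 8.97, then 7.86, 8.33 and 7.78, against 7.59, 7.29 and 7.72, so that all arthritic joints were above all controls. Its log2 change was 1.20, 0.81 and 1.04 in the first 3 phases (adjusted p 0.0101, 0.0304 and 0.0346) and 0.46 in the decline (adjusted p 0.408). A second, dim probe set of Pdia4, with a control mean of 4.72, went the other way (−0.38 at day 0 to 3). With the 2 probe sets averaged, Pdia4 did not pass in any of the first 3 phases. Pdia6, a further isomerase, changed by 1.23 at day 0 to 3 (adjusted p 0.0209) and 0.68 in week 1 to 2 (adjusted p 0.0967).

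Creld2, a small ER protein known as a stress marker, changed by 0.95 at day 0 to 3 (SE 0.18, adjusted p 0.00727), with 8.43 and 8.37 against 7.64, 7.09 and 7.59 in controls. The remaining chaperones did not pass. Dnajb11 (ERdj3), a BiP partner, changed by 0.98 (adjusted p 0.0749), Dnajc3 (P58IPK), another BiP partner, by 0.92 (adjusted p 0.0839) and Canx (calnexin), the membrane lectin chaperone, by 0.86 (adjusted p 0.0994). Calr (calreticulin), its soluble relative, changed by 0.36 (adjusted p 0.386). Hyou1, Manf and Sdf2l1, which fall outside the rule for named genes and were chosen after their values were seen, changed by 0.59, 0.49 and 0.27 (adjusted p 0.11, 0.245 and 0.236). Hyou1 is a large Hsp70-type nucleotide exchange factor, Manf a secreted stress-induced factor and Sdf2l1 a partner of the J-domain proteins. Of the 15 chaperones, 14 had both day 0 to 3 arrays above every control, and Manf was the exception.

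**Figure D2:**
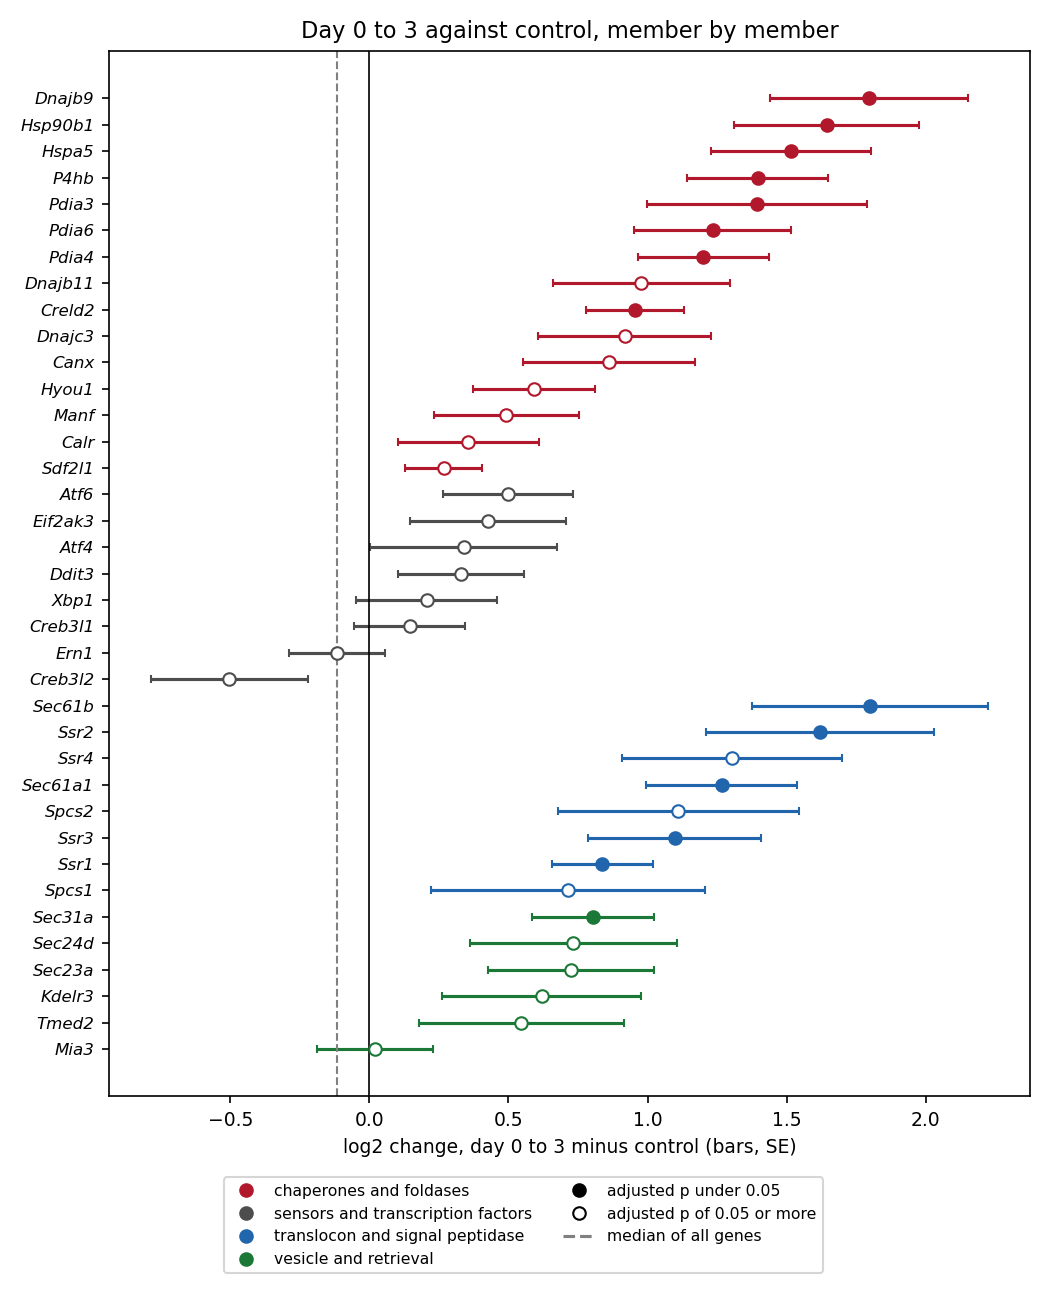
Log2 change at day 0 to 3 against control for each of the 37 members (horizontal; bars are the standard error of the fit over 14 arrays), sorted within the 4 role groups; filled points passed the limma test. The 14 filled points are chaperones, translocon genes and Sec31a, and the 8 sensors and factors lie between −0.50 and 0.50.

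Part of the chaperone group shared a sequence feature in front of the gene. The ER stress response element, to which Atf6 and Xbp1 are known to bind together with the CCAAT-binding factor NF-Y, was searched on both strands as CCAAT and CCACG with 9 bases between them, in the 250 bases before the RefSeq transcript start (assembly GRCm38.p6). A promoter was held for 31 of the 39 genes. The element was present in 7 of these, all of them among the 13 chaperones with a promoter, and in 35 of 27025 genes overall (0.13%). The element and the genes were both chosen for known ties to the ER, so these shares are no test of enrichment. The 8 matches lay between 212 and 47 bases before the start, 5 of them on the strand of the gene. Each match in a member is printed. The chaperones had the most members higher at day 0 to 3 (8 of 15), but the translocon group had the larger share (5 of 8). Of the 7 translocon genes with a promoter, 0 held the element. The sequences are read 5′ to 3′ in the direction of the element with 10 bases on either side, and the capitals mark the CCAAT and CCACG parts.
Hspa5, chr2:34772015-34772053, plus strand: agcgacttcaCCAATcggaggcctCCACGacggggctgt
Hsp90b1, chr10:86705628-86705666, minus strand: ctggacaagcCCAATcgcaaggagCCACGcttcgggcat
Hsp90b1, chr10:86705523-86705561, plus strand: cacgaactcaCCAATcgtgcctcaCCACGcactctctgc
Pdia6, chr12:17266481-17266519, plus strand: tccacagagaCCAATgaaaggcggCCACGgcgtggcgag
Creld2, chr15:88819510-88819548, minus strand: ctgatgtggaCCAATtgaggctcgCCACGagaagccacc
Canx, chr11:50325790-50325828, minus strand: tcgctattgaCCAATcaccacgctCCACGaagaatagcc
Dnajc3, chr14:118937817-118937855, plus strand: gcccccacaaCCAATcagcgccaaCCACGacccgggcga
Calr, chr8:84847065-84847103, plus strand: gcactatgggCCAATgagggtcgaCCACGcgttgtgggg

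Both elements of Hsp90b1 fall in one window of 250 bases, chr10:86705445-86705694, printed here on the minus strand, which is the strand of the gene. The first pair of capitals is the match on the strand of the gene, and the second is the match on the other strand, read there from right to left.
Hsp90b1 window: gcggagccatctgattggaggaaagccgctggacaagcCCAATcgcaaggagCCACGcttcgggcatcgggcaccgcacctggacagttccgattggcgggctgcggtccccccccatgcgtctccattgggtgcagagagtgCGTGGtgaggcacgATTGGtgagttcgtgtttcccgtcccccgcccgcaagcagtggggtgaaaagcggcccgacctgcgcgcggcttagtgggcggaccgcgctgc

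Of the 7 chaperones with the element, Hspa5, Hsp90b1, Pdia6 and Creld2 were higher at day 0 to 3 and Calr, Canx and Dnajc3 did not pass. Of the 6 chaperones whose window held no such match, 4 were higher (Dnajb9, P4hb, Pdia3 and Pdia4). Among genes outside the set, 13 with the element were measured, of which 0 were higher and 1 lower at day 0 to 3, with a median log2 change of −0.14. They include the ER genes Ero1b (0.64, adjusted p 0.0734), Derl3 (−0.23, adjusted p 0.475) and Syvn1 (−0.14, adjusted p 0.752), named after their values were seen. A match is a description of letters, and binding was not measured.

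A second element of the unfolded protein response, TGACGTGG, to which Xbp1 is known to bind, was found in 2 of the 31 promoters and in 163 of all 27025 (0.603%). Both were in the vesicle group, and these shares, too, are no test of enrichment. Kdelr3 and Sec24d are shown with capitals for the 8 letters of the element and 10 bases on either side.
Kdelr3, chr15:79516368-79516395, minus strand: ggccgcgcggTGACGTGGcggggcggcc
Sec24d, chr3:123267460-123267487, plus strand: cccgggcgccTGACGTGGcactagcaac
The letters TGATGNAAT of the element bound by Atf4 and its partners were in 0 of the 31 windows and in 246 of all 27025 (0.91%).

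The sensors and transcription factors showed the smallest median change of the 4 groups, and none of the 8 passed in any phase against control. Of all genes, 4.46%, 5.41% and 0.958% were higher in the first 3 phases, so 0 of 8 lies near the share of all genes. Ern1, the kinase and nuclease that splices Xbp1, read 6.76 and 6.91, then 6.57, 6.85 and 6.73, then 6.90, 6.65 and 6.90, then 6.43, 6.87 and 6.43, against 6.96, 6.87 and 7.02. No arthritic array was above control 1 or control 3, and 3 were above control 2, with changes from −0.12 at day 0 to 3 to −0.37 in the decline (adjusted p 0.689 and 0.371). Eif2ak3, the kinase that slows translation, changed by 0.43 at day 0 to 3 (adjusted p 0.35), and its controls ran from 6.39 to 7.54 where its arthritic arrays ran from 6.67 to 7.57.

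Atf6, the membrane-held factor that is cut in the Golgi, read 8.34 and 8.14, then 7.94, 8.06 and 8.09, then 8.19, 7.56 and 8.24, then 7.73, 8.03 and 7.38, against 7.82, 7.49 and 7.92. It was the 1 gene of the group with both day 0 to 3 arrays above every control, with a change of 0.50 (SE 0.23, adjusted p 0.195). Xbp1, the factor whose transcript is spliced by Ern1, read 7.58 and 7.61, then 7.48, 7.58 and 7.51, then 7.34, 7.53 and 8.12, then 7.30, 7.56 and 7.51, against 6.96, 7.34 and 7.87. Control 3 was higher than all arthritic arrays but that of animal 60, and the change at day 0 to 3 was 0.21 (SE 0.25, adjusted p 0.622), measured on the whole gene and not on its spliced form.

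Atf4, the factor made when translation is slowed, changed by 0.34 at day 0 to 3 (adjusted p 0.532), and control 2 (6.93) and decline 10 (7.02) lay below all its other arrays. Ddit3 (CHOP), the factor linked to cell death, read 8.07 and 8.35, then 8.17 on each of the 3 week 1 to 2 arrays, then 8.15, 8.10 and 8.38, then 8.16, 8.55 and 8.18, against 7.53, 8.38 and 7.72. The controls of Ddit3 reached from below all arthritic arrays to 8.38, above all but those of animal 60 and decline 21, and the change was 0.33 at day 0 to 3 (adjusted p 0.369) and 0.42 in the decline (adjusted p 0.432).

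The Creb3-type factors, which are cut and released from the ER membrane in the manner of Atf6, did not pass in any phase, and the difference between them was not tested. Creb3l1 (OASIS), known for its part in collagen secretion by osteoblasts, changed by 0.14, 0.45, 0.51 and 0.54 in the 4 phases in turn (adjusted p 0.664, 0.113, 0.127 and 0.288). Its week 1 to 2 arrays (8.17, 7.89 and 7.84) and its decline arrays (7.98, 8.07 and 8.09) all lay above the controls (7.82, 7.60 and 7.11). Creb3l2, which raises COPII genes in cartilage, lay lower than control in every phase, by −0.50 and −0.63 in the first 2 phases (adjusted p 0.271 and 0.115). Its week 1 to 2 arrays (7.06, 6.96 and 6.87) were all below the controls (7.54, 8.09 and 7.16).

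**Figure D3:**
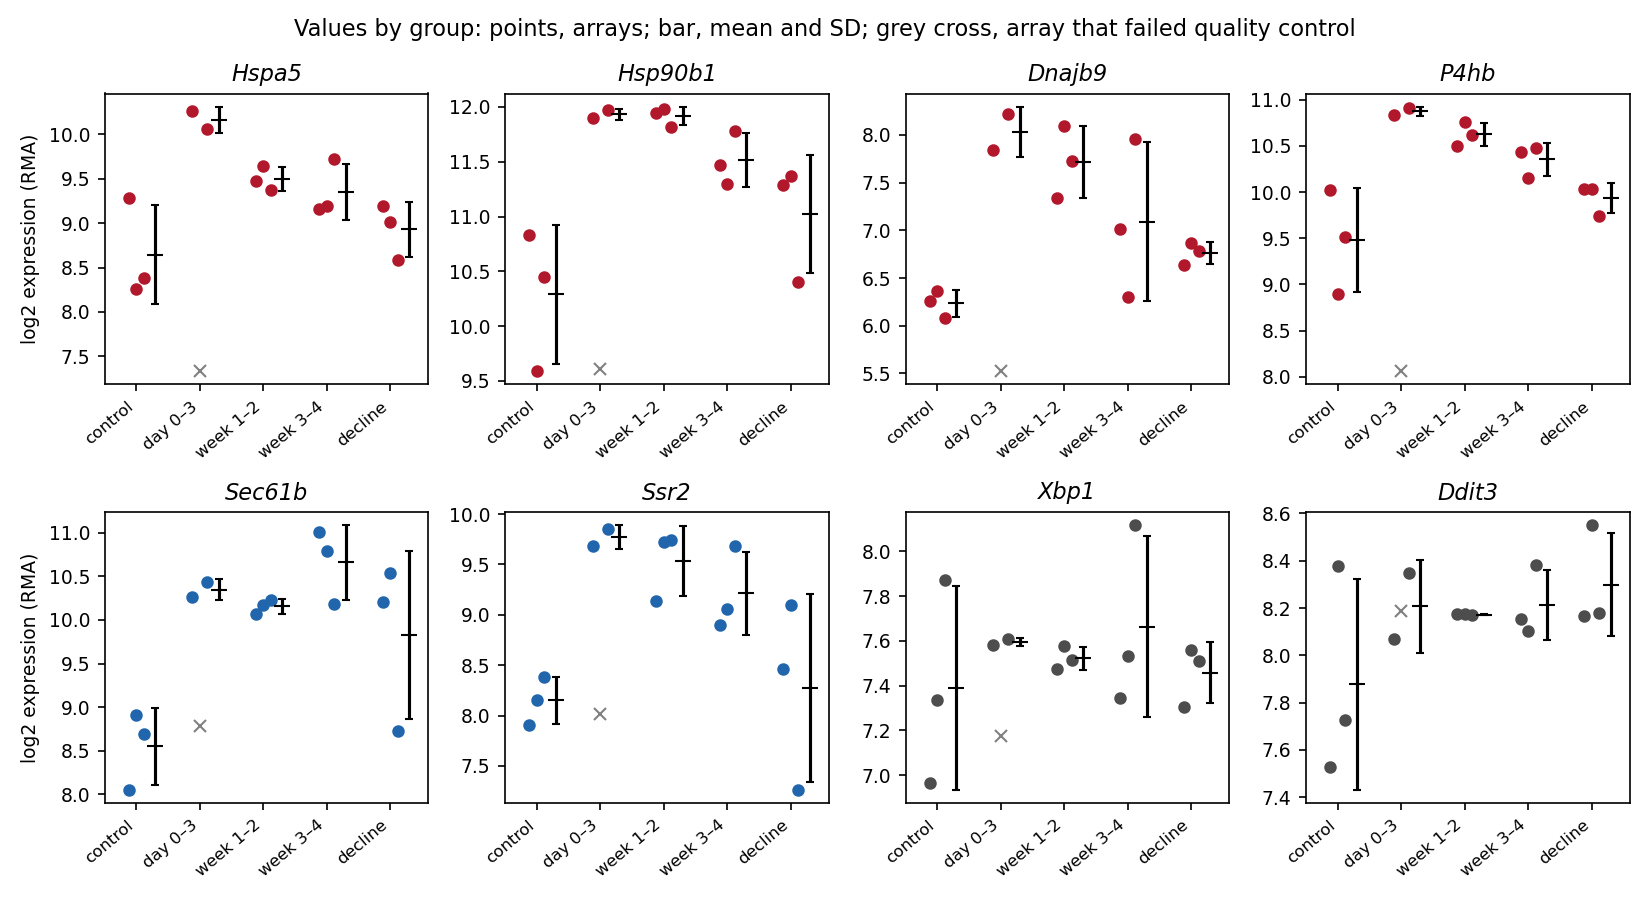
Log2 values of 8 members by group: points are arrays, the bar beside them the mean with SD, and the grey cross is animal 57, which failed quality control. Hspa5, Hsp90b1, Dnajb9, P4hb, Sec61b and Ssr2 were above the controls at day 0 to 3, and the controls of Xbp1 and Ddit3 spanned most of the arthritic arrays.

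All 8 translocon and signal peptidase genes lay above every control on both day 0 to 3 arrays, and 5 of them passed the test. Sec61b, the beta subunit of the channel, read 10.26 and 10.43, then 10.06, 10.17 and 10.23, then 11.01, 10.79 and 10.19, then 10.20, 10.54 and 8.73, against 8.05, 8.91 and 8.69. All arthritic arrays but decline 10 were more than 1 log2 unit above the highest control. The log2 change was 1.80, 1.61 and 2.11 in the first 3 phases (adjusted p 0.0231, 0.0203 and 0.0252), the last being 4.33-fold. In the decline it was 1.28 (adjusted p 0.242). The other 2 probe sets of Sec61b changed less, by 0.89 and 1.16 at day 0 to 3 and by 1.23 and 1.49 in week 3 to 4. The set used had the highest mean over the 14 arrays, arthritic joints among them. Its control mean was 8.55, against 9.19 and 8.44, so its larger rise helped to select it. With the probe sets averaged, Sec61b passed in week 1 to 2 and in week 3 to 4 but not at day 0 to 3.

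Sec61a1, the pore itself, read 9.04 and 9.03, then 8.51, 8.73 and 8.88, then 8.30, 7.996 and 8.73, then 7.75, 8.41 and 7.96, against 8.24, 7.40 and 7.66. The early arrays were clear of the controls and the later ones overlapped them. The change was 1.27, 0.94 and 0.57 in the first 3 phases (adjusted p 0.0152, 0.0302 and 0.182).

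The Ssr genes encode the translocon-associated protein complex, which helps nascent chains into the lumen. Ssr2 read 9.68 and 9.85, then 9.14, 9.73 and 9.74, then 8.90, 9.06 and 9.68, then 8.47, 9.10 and 7.26, against 7.91, 8.15 and 8.38. Every array of the first 3 phases was above every control, and decline 10 was below them all. Ssr2 changed by 1.62 at day 0 to 3 (adjusted p 0.0303) and 1.38 in week 1 to 2 (adjusted p 0.0322). Ssr1 changed by 0.84 and 0.66 in these phases (adjusted p 0.0163 and 0.0252) and Ssr3 by 1.10 and 0.85 (adjusted p 0.0468 and 0.0656). Ssr4 changed by 1.30 and 1.25, with the opposite outcome of the test (adjusted p 0.0599 and 0.0419).

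Spcs1 and Spcs2, the small subunits of the signal peptidase, did not pass. Their changes at day 0 to 3 were 0.71 and 1.11 (adjusted p 0.37 and 0.126), with control 2 the lowest control for both, at 10.24 and 7.72.

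Of the vesicle genes, Sec31a alone passed. This outer-coat subunit of COPII read 8.97 and 8.96, then 8.74, 8.99 and 8.88, then 8.95, 8.48 and 8.96, then 8.38, 8.66 and 7.99, against 8.27, 7.89 and 8.31. Every array of the first 3 phases was above the controls, with a change of 0.80 at day 0 to 3 (adjusted p 0.0409) and 0.71 in week 1 to 2 (adjusted p 0.0378). Sec23a and Sec24d, subunits of the COPII inner coat, changed by 0.72 and 0.73 at day 0 to 3 (adjusted p 0.144 and 0.227), and control 1 was as high as the day 0 to 3 arrays for Sec24d (7.91 against 7.72 and 7.51).

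Mia3 (TANGO1), which helps to load large cargo such as procollagen, changed by 0.02 at day 0 to 3 (SE 0.21, adjusted p 0.958), with 8.20 on both arrays and 8.45, 7.97 and 8.12 in controls. Tmed2, a cargo receptor of the early secretory path, changed by 0.55 (adjusted p 0.362). Kdelr3, a retrieval receptor, changed by 0.62 at day 0 to 3 (adjusted p 0.284) and by 1.09 in week 3 to 4 (adjusted p 0.0854), with 6.54, 6.93 and 7.45 there against 6.57, 5.42 and 5.67 in controls.

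In week 1 to 2, 11 of 37 members were higher than in controls and 0 lower, where 5.41% of all genes were higher. They were 5 chaperones (Hsp90b1, Pdia3, Pdia4, P4hb and Dnajb9), 5 translocon genes (Sec61a1, Sec61b, Ssr1, Ssr2 and Ssr4) and Sec31a. All 3 arrays lay above all controls for 21 members, against 13.6% of all genes. The count ran from 1 without animal 43 to 20 without control 1. Compared with day 0 to 3, 0 of 37 members passed (0.00502% of all genes did), and 2 members had an unadjusted p under 0.05, as had 1.79% of all genes. All 15 chaperones had the lower mean in week 1 to 2, and for 10 of them every week 1 to 2 array was below both day 0 to 3 arrays, against 11.2% of all genes.

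In week 3 to 4, Pdia4 and Sec61b were higher, 2 of 37 members, where 0.958% of all genes were higher. The median change of the members was 0.65, beside 0.68 in week 1 to 2. A second quantile normalisation of the arrays took these medians to 0.32 and 0.34, and one median and SD for all arrays took them to 0.39 and 0.41. As deposited, 16 members had all arrays above all controls, against 10.5% of all genes. The count of 2 went to 0 without any one of the 3 week 3 to 4 arrays and to 15 without control 1. Against week 1 to 2, 0 of 37 members passed (0.00502% of all genes did), and 0 members had an unadjusted p under 0.05, against 4.98% of all genes. The array names carry a letter code of unknown meaning: all arrays of the first 2 weeks and animal 54 have the first code, animals 29 and 60 and the declining joints the second, and the controls none. The code and each phase against control cannot be told apart. With the code as a block, 0 members passed between week 3 to 4 and week 1 to 2. In that fit only animal 54, set against animals 29 and 60, separates code from phase. Among arrays of the first code alone, week 3 to 4 is 1 array, so no count is given.

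In the decline, 0 of 37 members differed from control, as did 0.0% of all genes. An unadjusted p under 0.05 was found for 5 of the 37 members and for 12.0% of all genes, so the members lay near the background. The median change of the members was 0.27, and 3 members had all arrays above all controls, against 3.8% of all genes. Against week 3 to 4, 0 of 37 members passed (0.0% of all genes), while 6 members and 6.13% of all genes had an unadjusted p under 0.05. Decline 10 was above every control for 6 members, animal 15 for 16 and animal 21 for 20.

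Set against the 5 arrays of the first 2 weeks together, the declining joints had 5 members lower and 0 higher, where 2.08% of all genes were lower. These were Ssr2 (−1.37, adjusted p 0.0316), Dnajb9 (−1.11, adjusted p 0.0435), Hspa5 (−0.90, adjusted p 0.0424), Sec61a1 (−0.83, adjusted p 0.0467) and P4hb (−0.81, adjusted p 0.0387). For each of the 5 the highest declining array was below the lowest of these, as for 11 members in all and 7.34% of all genes. The closest were Ssr2, at 9.10 against 9.14, and Sec61a1, at 8.41 against 8.51. Under the 3 rescalings of the arrays given below, Dnajb9 and Ssr2 passed each time, and Hspa5, Sec61a1 and P4hb did not pass each time. The count ran from 0 to 8 as single arrays were left out, with 0 without animal 16, 18, 43, 52 or decline 10, and 8 without control 2. The 5 early arrays all have the first letter code and the declining joints all the second. Code and phase therefore cannot be told apart in this comparison. All 8 epidermis markers of a list of keratins and related genes were higher in the declining joints by the same test (adjusted p 0.00314 to 0.0262), as were 4 of 8 skeletal muscle markers, while 2 of 8 macrophage and 1 of 8 fibroblast markers were lower. It was not tested.

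**Figure D4:**
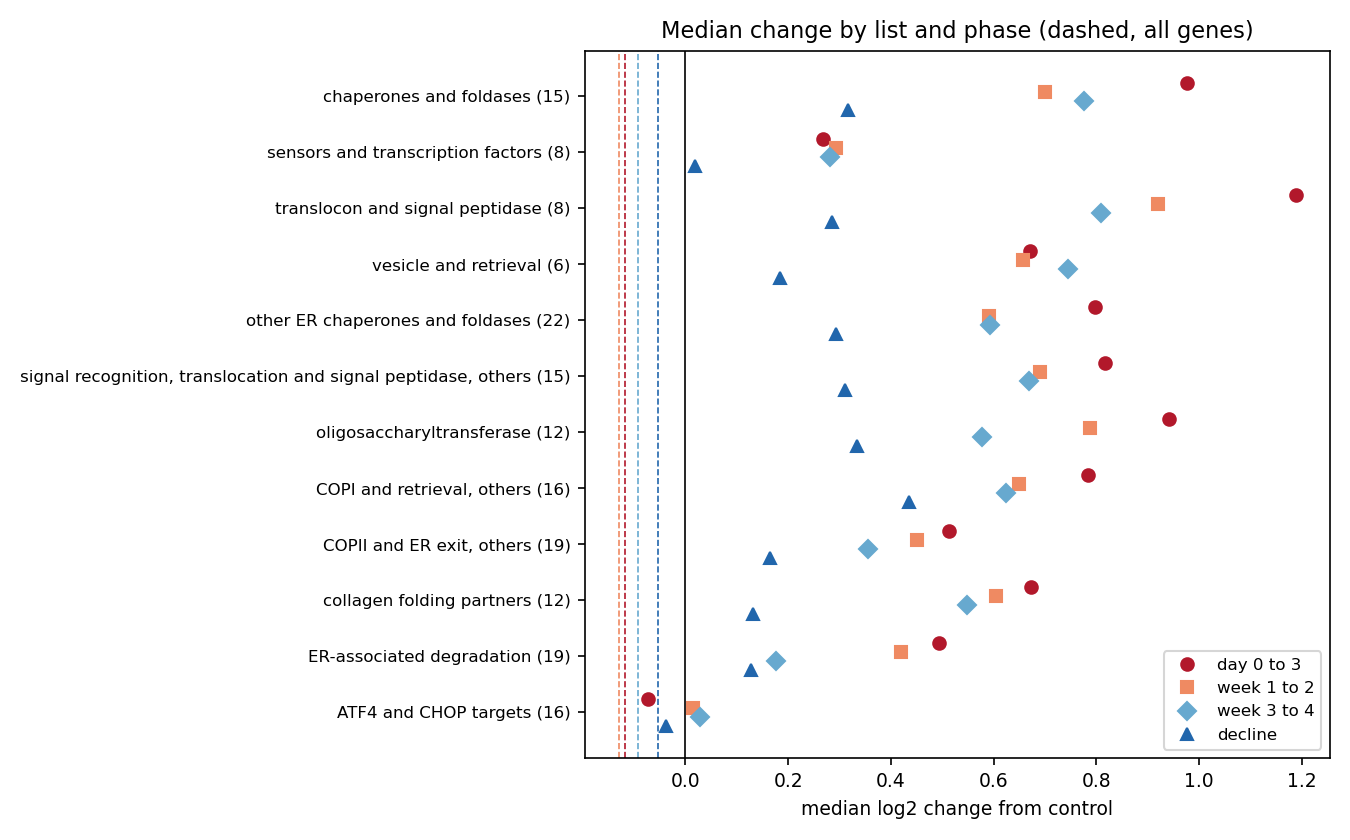
Median log2 change from control (horizontal) of the 4 role groups and of 8 lists of related genes (vertical, with the number of genes measured), for the 4 phases (symbols), which share the same controls; dashed lines are the medians of all genes. Most secretory lists lie to the right of the dashed lines in the first 3 phases, and the list of Atf4 and CHOP targets lies near 0.

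Other genes of the pathway, none of them in the set of 39, were counted at day 0 to 3 by list. Of all 19938 genes, 4.46% were higher and 669 were lower in that phase, and lists with few calls lie near these shares. These lists, too, were chosen with earlier results of these data known. Of 22 other ER chaperones and foldases, 7 were higher and 0 lower (median 0.80), among them the calcium-binding Rcn3 (2.08, adjusted p 0.0216) and Rcn1 (1.45, adjusted p 0.00896) and the retention factor Erp44 (1.30, adjusted p 0.022). Of 15 other genes of signal recognition, translocation and signal cleavage, 7 were higher (median 0.82), with the catalytic signal peptidase subunits Sec11a (1.98, adjusted p 0.0133) and Sec11c (1.43, adjusted p 0.0429) and the signal recognition particle gene Srp9 (1.19, adjusted p 0.032). Of 12 oligosaccharyltransferase genes, which attach N-linked sugars, 5 were higher (median 0.94), led by Ost4 (1.81, adjusted p 0.0256), Stt3a (1.65, adjusted p 0.0123) and Ostc (2.83-fold, adjusted p 0.0264).

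The lists of vesicle transport were counted in the same way. Of 19 other COPII and ER exit genes 2 were higher (median 0.51), the cargo receptor Lman1 (1.69, adjusted p 0.0034) and Ergic2 (0.77, adjusted p 0.0163). Of 16 other COPI and retrieval genes 5 were higher (median 0.78), with the small GTPase Arf1 (2.08, adjusted p 0.00941) and the coat subunits Copz2 (2.02, adjusted p 0.00664) and Arcn1 (1.72, adjusted p 0.024). Of 12 folding partners of collagen 3 were higher (median 0.67): the lysyl hydroxylase Plod2 (2.14, adjusted p 0.0139), and Crtap (1.49, adjusted p 0.0151) and Ppib (1.15, adjusted p 0.0353) of the prolyl 3-hydroxylation complex.

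Lists tied to stress responses followed. Of 19 genes of ER-associated degradation 3 were higher (median 0.49): Erlec1 (1.08, adjusted p 0.0188), Derl2 (0.92, adjusted p 0.0386) and Edem1 (0.89, adjusted p 0.00983). Of 16 targets of Atf4 and CHOP 0 were higher and 1 lower (median −0.07), the lipoprotein receptor Vldlr (−1.15, adjusted p 0.00454). In week 1 to 2 that list had 1 higher and 2 lower, where 5.41% of all 19938 genes were higher and 926 lower. Of 10 cytosolic heat shock genes 2 were higher (median 0.87), Hspa8 (0.88, adjusted p 0.0259) and Hspd1 (0.87, adjusted p 0.0263), the latter a chaperone of mitochondria.

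Markers of secretory and other cells were counted on the same arrays. At day 0 to 3, 4.46% of all 19938 genes were higher and 669 were lower. In week 1 to 2, 5.41% were higher and 926 lower. Of 8 plasma cell markers 0 passed at day 0 to 3, and their mean lay between −0.01 and 0.01 of the control mean there and between −0.14 and 0.14 in controls. Of 8 macrophage markers 4 were higher, with a mean of 1.15 to 1.47 at day 0 to 3 against −0.43 to 0.45 in controls, and of 8 fibroblast markers 2 were higher, with a mean of 1.03 to 1.15 against −0.41 to 0.77. Of 8 skeletal muscle markers 7 were lower, with a mean of −2.52 to −2.32 against −0.27 to 0.44. Of 6 osteoblast markers 1 was higher, with a mean of −0.09 to 0.25 against −0.26 to 0.35, and of 8 epidermis markers 0 passed, with a mean of −1.87 to −1.77 against −1.37 to 2.41. In week 1 to 2, 5 of 8 fibroblast, 3 of 6 osteoblast and 1 of 8 macrophage markers were higher, 2 of 8 muscle markers were lower, and 0 of 8 plasma cell and 0 of 8 epidermis markers passed. These means are log2 differences from the control mean over each whole list, and their part in the members' changes was not tested.

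The members also moved with the spread of values on an array. The SD of the log2 values over all genes ran from 1.22 on control 2 and 1.28 on decline 10 to 1.65 on animal 60, and control 2 was the lowest control for 26 of the 37 members. Across the 14 arrays the mean of the chaperones had r = 0.90 with this SD, the translocon group 0.92, the vesicle group 0.93 and the sensors and factors 0.85, which describes points that share their groups. Within the 11 arthritic arrays r was 0.81, 0.89, 0.92 and 0.82. Among the 14 members higher at day 0 to 3 it ran over the 14 arrays from 0.56 for Ssr1 to 0.92 for Pdia3, and among the others from −0.80 for Creb3l2 to 0.94 for Dnajb11. When every array was given the same distribution by a second quantile normalisation, the median change at day 0 to 3 was 0.55 for the members and −0.03 for all genes. With one median and SD for all arrays these were 0.59 and −0.01. Under these rescalings and the centring of arrays on their medians, 8 of the 14 members passed each time: Hspa5, Hsp90b1, Pdia4, Pdia6, P4hb, Dnajb9, Creld2 and Sec61a1. Pdia3, Sec31a and the translocon genes Sec61b, Ssr1, Ssr2 and Ssr3 did not pass each time.

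**Figure D5:**
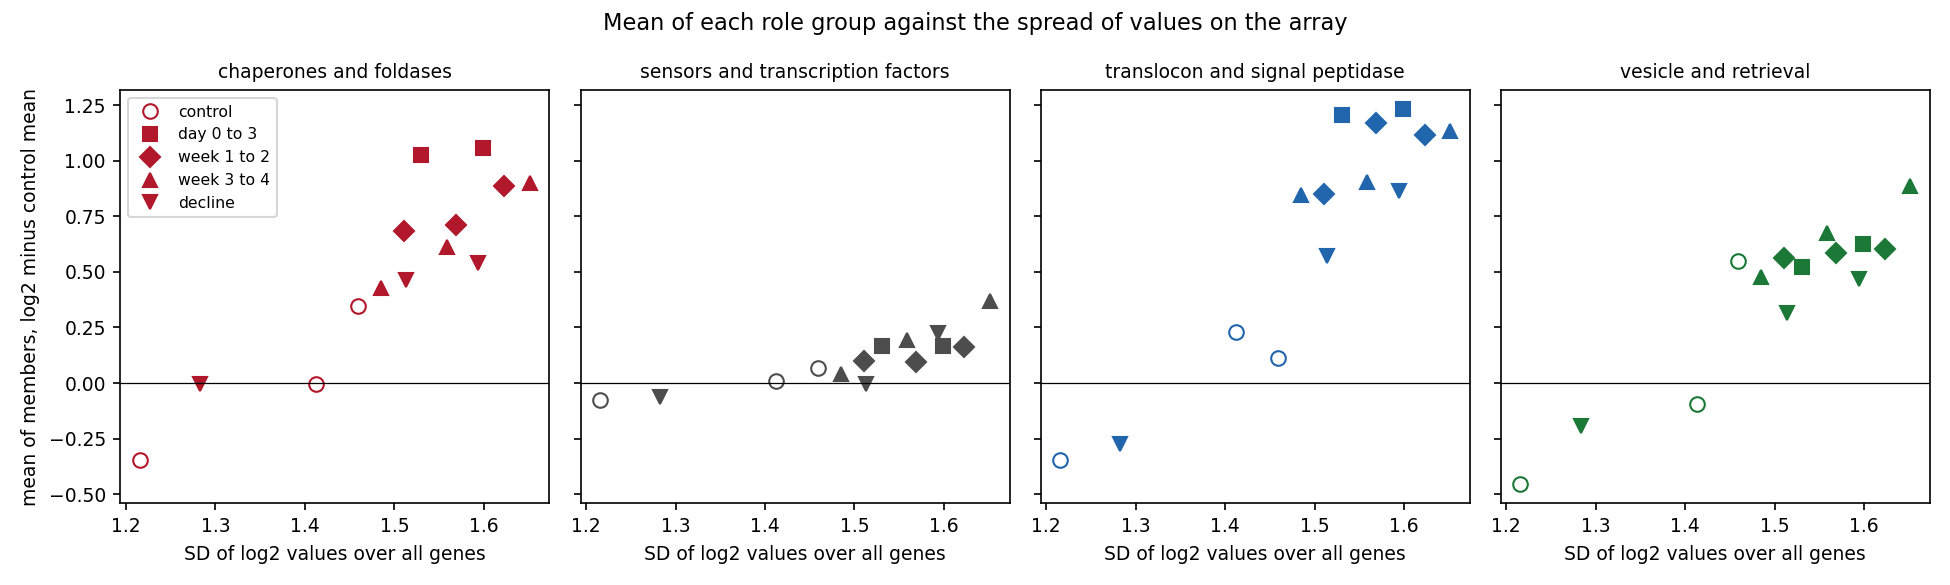
Mean of each role group as a log2 difference from the control mean (vertical) against the SD of all log2 values on the array (horizontal), one point for each of the 14 arrays, with groups by symbol. Control 2 and decline 10 lie at the lower left in every panel, with the lowest SDs of the 14 arrays.

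Animal 57 had the narrowest array, with an SD of 1.08. It lay above every control for 0 of the 37 members and below every control for 23. With this array added, 0 members passed at day 0 to 3, in week 1 to 2 or in week 3 to 4.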

How the data were processed

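One tarsal joint of each of 15 mice was hybridised to a one-colour Affymetrix array (Mouse Gene 1.0 ST), with no pooling. The values, deposited as log2, were made by the authors with RMA (background correction, quantile normalisation and probe summary) in the affy package under R 2.15. The sources used here give neither its version nor whether the failed array was normalised with the other 14.

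Of 35556 probe sets, the 21789 that name 1 gene were used, and for each of 19938 genes the probe set with the highest mean over 14 arrays. Groups were fitted together as 5 means in limma 3.58.1 under R 4.3.3 (lmFit and eBayes) over all genes, in 8 contrasts, and a gene passed at a Benjamini-Hochberg adjusted p under 0.05. No filter was set on low values. The methods name an ANOVA, which is among the alternatives. The calculation was tested on simulated data. Replicates are separate mice, so errors hold the spread between mice and between arrays. Arrays have no read depth, and their number limits the precision.

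The members and the lists were chosen with earlier results of these data known. Named are all sensors and factors, every member past the test in a phase and, in the other role groups, members lower than control and up to 8 by size of change at day 0 to 3, and up to 3 genes of each related list. Promoter sequences are those of RefSeq (GRCm38.p6), searched in the 250 bases before the start. Protein sequences were not used here. Alternatives were all 15 arrays, each array left out, control 2 and decline 10 left out, only the groups compared, other moderation, array weights, 3 rescalings, limits of 4 and 6 on the mean, other handling of probe sets, an added 2-fold limit and the letter code as a block or subset. Matplotlib 3.10.9 and Python 3.11.15 served for the figures.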

Additional observations from a re-analysis of the deposited data

Results flagged for a closer look

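Against the controls, 5 members had a change in the decline that differed from their change in the first 2 weeks by the limma test of that difference. The log2 difference, decline minus the mean of both earlier groups, was −1.37 for Ssr2, −1.11 for Dnajb9, −0.90 for Hspa5, −0.83 for Sec61a1 and −0.81 for P4hb. Only Ssr2 and Dnajb9 passed under each of the 3 rescalings of the arrays. The letter code of the arrays and the phase cannot be told apart in this difference. No group had more than 3 arrays, so single arrays were not tested as outliers.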

How the results depend on the processing

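Counts of members past the test varied with single arrays and with the scaling. Of 1440 values of single members under alternatives, 1429 kept their sign. Among members that had passed, 1 reversed: Sec31a at day 0 to 3, from 0.80 to −0.0314 with all 15 arrays. The causes of these shifts were not tested. Many alternatives cannot alter a member's change, such as other moderation, a limit on the mean or leaving out an array of a group not compared. The median change of the members at day 0 to 3 was 0.80 under each of these. Signs kept there were fixed in advance, so the 1429 do not measure stability. Counts of members under alternatives, here and above, are given without the share of all genes under the same alternative. A larger count is therefore not set apart from a general rise in calls.

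With single arrays left out, the 14 members of day 0 to 3 became 0 to 19, the 11 of week 1 to 2 became 1 to 20, the 2 of week 3 to 4 became 0 to 15, the 0 of the decline 0 to 1, and the 5 of the decline against the first 2 weeks 0 to 8. The day 0 to 3 count left the range within 1.5 times for animal 16 (0), animal 18 (0) and control 2 (9). That of week 1 to 2 did so for animals 43 (1) and 52 (2), decline 10 (18) and controls 1 (20), 2 (4) and 3 (6). That of week 3 to 4 was 0 without animal 54, 29 or 60, 1 without animal 16, 18, 33, 43 or 52 or control 2 or 3, 4 without decline 21, 10 without decline 10 and 15 without control 1. The decline against control had 1 without decline 10. The decline against the first 2 weeks had 0 without animal 16, 18, 43, 52 or decline 10, 1 without animal 54 or decline 15, 2 without animal 33, 3 without control 3 and 8 without control 2.

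All 15 arrays gave 0 in each phase and for the decline against the first 2 weeks. Fits of only the groups compared gave 4 at day 0 to 3, 7 in week 1 to 2 and 0 in week 3 to 4. The second quantile normalisation gave 8, 6 in week 1 to 2 and, for the decline against the first 2 weeks, 3. One median and SD gave 7 in week 1 to 2. The adjusted ANOVA gave 0 in the first 3 phases and 1 for the decline against the first 2 weeks. The unadjusted ANOVA gave 7 in week 3 to 4, 1 in the decline, 8 for week 1 to 2 against day 0 to 3, 2 for week 3 to 4 against week 1 to 2, 1 for the decline against week 3 to 4 and 13 for the decline against the first 2 weeks. An added 2-fold limit gave 7 in week 1 to 2 and 2 for the decline against the first 2 weeks. The letter code as a random block gave 22 in week 1 to 2 (21 higher and 1 lower), 17 in week 3 to 4, 2 in the decline and 21 for the decline against the first 2 weeks. Its estimated correlation was −0.158. This was estimated after the group means were fitted, and week 3 to 4 is the only group with arrays of both codes. The estimate therefore cannot show whether arrays of one code were more alike than others. These counts are not a correction for the code. The mean of the probe sets, and all probe sets, each gave 1 in week 3 to 4, and all probe sets gave 0 for the decline against the first 2 weeks. Without control 2 and decline 10 the decline had 1 against control and 1 against the first 2 weeks. For the latter, trend and robust moderation gave 2, array weights 11 and median centring 3.

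No paired analysis was possible because the groups share no replicate numbers.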
